A study of Homo sapiens with 8 samples.

Results

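The 132 genes described here are the protein-coding zinc finger genes of human chromosome 19 whose symbol is ZNF followed by digits and which were expressed in THP-1 macrophages. The genes were chosen by their level: the deposited FPKM, a fragment count divided by gene length and library size, had to reach at least 0.5 in at least 4 of 8 libraries. The gene annotation holds 241 such genes on the chromosome, of which 225 had a row in the table and 16 were not analysed here. The other 93 lay below the threshold. Their mean FPKM over 8 libraries had a median over genes of 0.122 and was at most 0.488. The same threshold left 12499 of the 30233 genes of the table, and these are the genes tested. Of the 132, 116 reached the threshold in every library, and none reached it in 1 treatment group alone. The levels are therefore given as a description.

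THP-1 cells derive from a human monocytic leukaemia, and all 8 libraries came from cells of this line made macrophage-like by 24 h of PMA at 100 ng/ml followed by 24 h of rest without it. Every library also received LPS, a bacterial outer-membrane component, at 100 ng/mL. In 4 libraries LPS was given alone (LPS libraries). In the other 4, 3-HPA (3-hydroxypropionic acid) at 5 mM was given with it, at the same time per the treatment protocol, although the series text speaks of pretreatment (3-HPA libraries). How long LPS was given is not stated in the sources used here, and the comparison has no unstimulated or 3-HPA-only library. All cells are 1 line. The labels leave unsaid whether replicates came from separate cultures, so each p-value reflects the spread among these 8 libraries alone, and that spread may be technical.

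Most of these genes encode transcription factors with a row of C2H2 zinc fingers, each finger a short loop held by a zinc ion between paired cysteines and paired histidines, and the fingers together read a DNA sequence. Many also carry a KRAB box, which binds the scaffold protein TRIM28 (KAP1), and TRIM28 in turn brings the histone methyltransferase SETDB1, HP1 proteins and deacetylases to the bound site. KRAB zinc finger proteins are best known as repressors of retrotransposons. Their genes arose by repeated tandem duplication and lie in large clusters on chromosome 19.

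ZNF350 (ENSG00000256683, chr19:51964343-51986856, minus strand, GRCh38) shows this layout, and its coding sequence gives a 532-residue protein with 8 finger patterns. The first line below is the stretch, within a coding exon at chr19:51969081-51969119, that matches the KRAB A-box pattern. The second, within a coding exon at chr19:51965769-51965831, is the first finger, with the cysteine and histidine codons in capitals. Both are written in the direction of the gene.
ZNF350 KRAB A-box: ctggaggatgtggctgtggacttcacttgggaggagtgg
ZNF350 first finger: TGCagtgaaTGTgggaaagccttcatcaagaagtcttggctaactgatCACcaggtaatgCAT

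A wider search over all coding transcripts of each gene accepted the A-box pattern or another KRAB pattern. By it, 106 of the 132 genes held a KRAB pattern and 26 did not, so a diverged KRAB box would be counted among the 26. The number of finger patterns ran from 0 to 31, with a median of 12, and ZNF91 held the highest number.

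Depth was 35647756 to 41859879 reads per library, recovered from the FPKM values, and a group gene had at least 24 reads in every library, with a median of 318. Of 10 macrophage or monocyte markers, 9 reached 0.5 FPKM in at least 4 libraries, with FCER1G the highest, while CD68, a defining macrophage gene, averaged 0.0677 FPKM. The list summed to 1477 to 1520 FPKM in LPS libraries and 1807 to 1877 in 3-HPA libraries, but its members did not move together: CD163 (24.8 to 25.8, then 19.3 to 20.6 FPKM) and MSR1 (34.0 to 37.1, then 27.5 to 29.6 FPKM) were lower in every 3-HPA library. T cell markers had no row in the table, and no B cell, epithelial or granule marker passed the threshold. The fibroblast list (3 of 4 genes in the table) summed to 1.95 to 2.29 FPKM in LPS libraries and 3.66 to 4.03 in 3-HPA libraries, nearly all of it COL1A1. The endothelial list (2 of 3) summed to 3.76 to 4.34 and 7.37 to 8.68 FPKM, nearly all of it PECAM1, which myeloid cells also express. DCN and VWF stayed under 0.067 FPKM in every library. The mitochondrial genome took 2.94 to 3.08% of all FPKM in LPS libraries and 4.37 to 4.58% in 3-HPA libraries. The nuclear RNA NEAT1 fell from 21.0 ± 0.975 to 17.3 ± 0.997 FPKM (SD, n = 4 each), with an adjusted p of 0.00140 from limma. MALAT1, another nuclear RNA, measured 2.096 ± 0.182 and 2.21 ± 0.151 FPKM and did not pass (adjusted p = 0.468). The part of these shifts in the results below was not tested.

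As a group the chromosome 19 ZNF genes sat slightly lower with 3-HPA. Of the 132, 37 fell, 3 rose (ZNF524, ZNF358 and ZNF428) and 92 did not pass an adjusted p of 0.05 (limma on log2(FPKM + 1), Benjamini-Hochberg adjustment over all 12499 genes tested). In the background, 28.0% of all genes tested fell and 15.7% rose, 43.7% in either direction. The share of ZNF genes that fell, 28.0%, equalled the background, so the number of falls is no result about these genes. The share that rose was 2.27%. In 30 of them the 2 groups of libraries did not overlap and 3-HPA was lower (26.9% of all genes tested), and in 2 they did not overlap and 3-HPA was higher (15.3%).

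The fold changes were small and mostly negative. The log2 fold change lay below 0 for 107 of the 132 genes (81.1%), against 60.1% of all genes tested. Its median was -0.096, with quartiles at -0.18 and -0.028, against -0.047 for all genes tested. The log2(FPKM + 1) scale understates changes of low genes: the median log2 ratio of the group means, with nothing added, was -0.17 against -0.064. Taken as 1 pool, the 132 genes summed to 353.7, 356.9, 351.4 and 351.4 FPKM in LPS libraries 1 to 4 and to 318.1, 321.1, 317.5 and 318.8 FPKM in 3-HPA libraries 1 to 4. The groups did not overlap, and the mean sum went from 353.4 ± 2.60 to 318.9 ± 1.60 FPKM (SD, n = 4 each), a difference of -9.76%. In these bulk libraries fewer cells expressing a gene and less RNA per cell cannot be told apart.

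**Figure D1:**
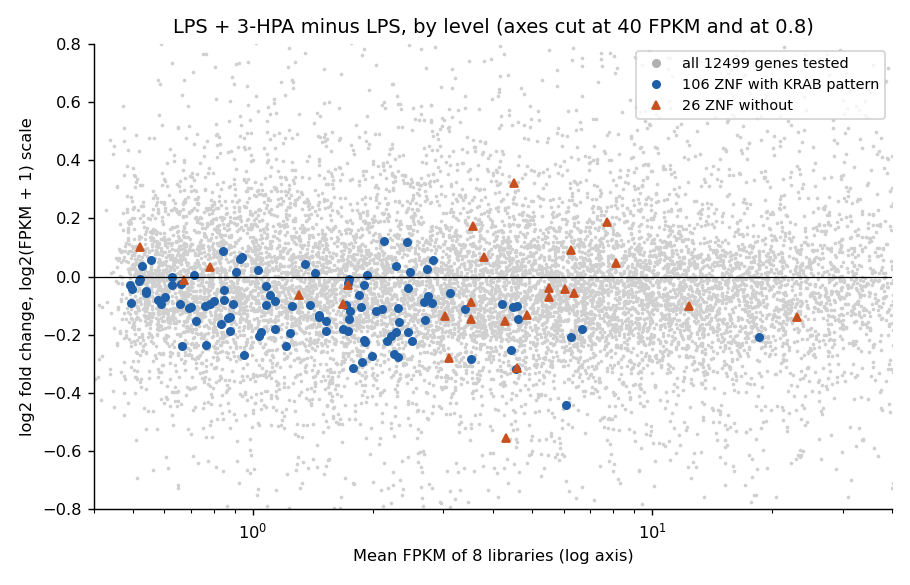
Log2 fold change of each gene (LPS with 3-HPA minus LPS, vertical axis) against its mean FPKM over 8 libraries (horizontal log axis), with all 12499 genes tested in grey, the 106 ZNF genes with a KRAB pattern as blue circles and the 26 without as orange triangles. Of the 132 coloured points, 107 lie below 0.

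Among single genes, ZNF296 (ENSG00000170684, chr19:45071500-45076588), whose mouse counterpart is known from stem cell reprogramming, had the largest fall on the log2 scale. It measured 5.04, 5.43, 5.15 and 5.53 FPKM in LPS libraries and 3.03, 3.91, 3.81 and 2.53 FPKM in 3-HPA libraries. The groups did not overlap, but the 3-HPA libraries spread more widely than the LPS libraries (5.29 ± 0.227 against 3.32 ± 0.660 FPKM, SD, n = 4 each). On the log2 scale ZNF296 changed by -0.55 (SE 0.10, adjusted p = 0.00188, limma), a mean level 0.628 times that of LPS.

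ZNF350, also called ZBRK1, is a KRAB repressor known as a partner of BRCA1. It measured 7.44, 6.92, 7.07 and 7.14 FPKM in LPS libraries and 5.15, 5.22, 4.63 and 4.99 FPKM in 3-HPA libraries. All 3-HPA libraries lay below all LPS libraries, with a gap wider than the spread of either group. The log2 fold change was -0.44 (SE 0.039, adjusted p = 2.09e-05, limma), and ZNF350 was the only one of the 132 to pass a test against a 1.2-fold change in place of no change (adjusted p = 0.0104, limma treat).

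ZNF274 (ENSG00000171606, chr19:58183029-58213562) is a KRAB protein known to bind the 3' ends of other zinc finger genes and to bring SETDB1 there. It measured 5.16, 5.01, 5.32 and 5.15 FPKM in LPS libraries and 3.93, 3.97, 3.63 and 4.27 FPKM in 3-HPA libraries. The groups did not overlap. Its log2 fold change was -0.32 (SE 0.043, adjusted p = 0.000346, limma). ZNF134 (ENSG00000213762, chr19:57614233-57624723) held 10 fingers and no KRAB pattern. It measured 5.08, 5.35, 5.12 and 5.20 FPKM in LPS libraries and 3.98, 3.895, 4.10 and 3.95 FPKM in 3-HPA libraries, so both groups were tight and separate. On the log2 scale ZNF134 changed by -0.31 (SE 0.031, adjusted p = 4.39e-05, limma).

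The other 6 of the 10 largest falls with separate groups were ZNF613, ZNF700, ZNF507, ZNF888, ZNF525 and ZNF841. Their log2 fold changes ran from -0.29 (ZNF613) to -0.25 (ZNF841), and their limma adjusted p from 0.000465 (ZNF507) to 0.0175 (ZNF613). All but ZNF507 held a KRAB pattern. The most highly expressed was ZNF841, at 4.90 ± 0.246 FPKM in LPS libraries and 3.97 ± 0.453 in 3-HPA libraries, and the lowest ZNF525, at 1.13 ± 0.156 and 0.765 ± 0.0541 FPKM (SD, n = 4 each). For ZNF613, 3-HPA library 4, at 1.204 FPKM, lay apart from the others at 1.75, 1.76 and 1.65 FPKM. Without that library the log2 fold change of ZNF613 was -0.22 (adjusted p = 0.0201, limma). Leaving out a different library raised its adjusted p as far as 0.0489 (limma).

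**Figure D2:**
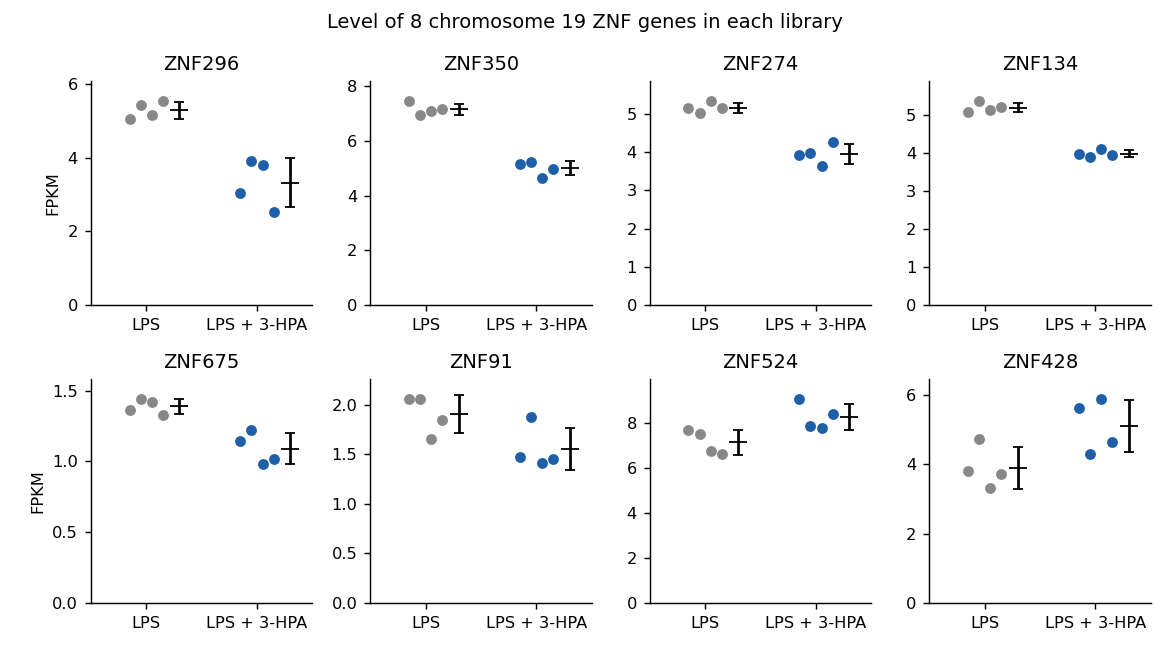
FPKM of 8 of the ZNF genes in each library, with LPS in grey and LPS with 3-HPA in blue, the bar to the right of each group giving its mean and SD (n = 4). The LPS and 3-HPA points are separate for ZNF296, ZNF350, ZNF274, ZNF134, ZNF675 and ZNF524 and overlap for ZNF91 and ZNF428.

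Several of the genes have known roles in signalling or in silencing. ZNF675, a KRAB protein known to inhibit signalling from TRAF6, an adaptor of the LPS receptor pathway, fell. It measured 1.36, 1.44, 1.42 and 1.33 FPKM in LPS libraries and 1.15, 1.22, 0.980 and 1.02 FPKM in 3-HPA libraries. The groups did not overlap (log2 fold change -0.19, SE 0.053, adjusted p = 0.0159, limma). ZNF160, known from intestinal epithelial cells as a repressor of the LPS receptor gene TLR4, measured 4.65, 5.04, 4.84 and 5.09 FPKM in LPS libraries and 4.19, 4.40, 4.14 and 4.59 FPKM in 3-HPA libraries. Its groups did not overlap, with little room between them. The log2 fold change was -0.15 (SE 0.041, adjusted p = 0.0169, limma), and under TMM scaling it was -0.097 with an adjusted p of 0.0875.

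ZNF91 is known to silence SVA retrotransposons and ZNF93 to silence LINE-1 elements. ZNF91 measured 2.05, 2.06, 1.66 and 1.85 FPKM in LPS libraries and 1.47, 1.87, 1.41 and 1.46 FPKM in 3-HPA libraries. 3-HPA library 2 lay among the LPS libraries, and ZNF91 did not pass (log2 fold change -0.19, SE 0.073, adjusted p = 0.0658, limma). Without that library the log2 fold change of ZNF91 was -0.25 (adjusted p = 0.0154), and without LPS library 3 it was -0.23 (adjusted p = 0.0402). Other left-out libraries gave ZNF91 a limma adjusted p of up to 0.150 and a change as small as -0.16. It did not pass under 19 of the 24 alternative settings. ZNF93 measured 0.841, 1.00, 0.974 and 0.921 FPKM in LPS libraries and 0.677, 0.706, 0.905 and 0.630 FPKM in 3-HPA libraries. 3-HPA library 3 alone reached the LPS range, and ZNF93 did not pass either (log2 fold change -0.16, adjusted p = 0.0659). Without that library the change of ZNF93 was -0.21 with an adjusted p of 0.0202. Other left-out libraries gave ZNF93 a limma adjusted p of up to 0.151 and a change as small as -0.14. It did not pass under 19 alternative settings and passed under 4.

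ZNF304, known to recruit TRIM28 to silenced genes in colorectal cancer cells, was chosen after its values were seen. It fell from 1.66 ± 0.124 to 1.39 ± 0.0915 FPKM (SD, n = 4 each), with a log2 fold change of -0.15 and an adjusted p of 0.0400. The call of ZNF304 was lost under TMM, quantile, upper-quartile and tested-gene median scaling, both voom fits, the unfiltered table, the replicate block and the leaving out of any of 6 libraries (LPS 1 to 3, 3-HPA 1, 3 and 4), with adjusted p from 0.0546 to 0.149. ZNF175, also chosen after its values were seen and known from HIV-infected macrophages as OTK18, measured 2.80 ± 0.223 and 2.58 ± 0.212 FPKM and did not pass (adjusted p = 0.269, limma). ZNF224, a KRAB protein known as a repressor of the aldolase A gene, measured 2.18, 2.45, 2.15 and 2.18 FPKM in LPS libraries and 2.17, 2.37, 2.52 and 2.23 FPKM in 3-HPA libraries. The groups overlapped throughout (log2 fold change 0.036, adjusted p = 0.603). ZNF85, with at most 4 reads in a library, and the imprinted gene ZNF331, at 0.0820 ± 0.0306 and 0.0968 ± 0.0337 FPKM, lay below the threshold and were not tested.

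The 3 genes that rose carried no KRAB pattern. ZNF524 (ENSG00000171443, chr19:55600022-55603138) measured 7.71, 7.50, 6.75 and 6.61 FPKM in LPS libraries and 9.07, 7.86, 7.79 and 8.39 FPKM in 3-HPA libraries. The groups did not overlap, with little room between LPS library 1 and 3-HPA library 3. The log2 fold change was 0.19 (SE 0.059, adjusted p = 0.0299, limma), and without LPS library 3, LPS library 4, 3-HPA library 1 or 3-HPA library 4 the adjusted p of ZNF524 was 0.0775, 0.0776, 0.0711 and 0.0666. With equal totals ZNF524 gave 0.0585, with voom on library totals 0.0520 and with no filter 0.0781. ZNF428 and ZNF358 are named outside the rule for named genes, after their values were seen. ZNF428 measured 3.81, 4.73, 3.31 and 3.74 FPKM in LPS libraries and 5.62, 4.31, 5.89 and 4.66 FPKM in 3-HPA libraries. LPS library 2 lay above 2 of the 3-HPA libraries (log2 fold change 0.32, SE 0.11, adjusted p = 0.0365, limma). ZNF358 measured 3.801, 3.30, 3.08 and 2.98 FPKM in LPS libraries and 3.88, 3.996, 3.83 and 3.60 FPKM in 3-HPA libraries. LPS library 1 lay within the 3-HPA range (log2 fold change 0.17, SE 0.061, adjusted p = 0.0475). The call of ZNF428 was lost when LPS library 1, 3 or 4 was left out, or 3-HPA library 1 or 3 (adjusted p from 0.0745 to 0.0917), with no filter (0.0998) and with the replicate block (0.0951). That of ZNF358 was lost without any of LPS libraries 2 to 4 or 3-HPA libraries 1 to 3 (0.0844 to 0.117), and also with equal totals (0.0850), totals made equal without the mitochondrial genome (0.0606), voom on library totals (0.0796) and no filter (0.111). Exons of other genes cover 14.1% of the exon length of ZNF524, 27.6% of ZNF428 and 34.4% of ZNF358, and use of strand in the counting is unknown, so reads of overlapping genes cannot be told apart.

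Overlap of this kind exceeded 10% of exon length in 32 of the 132 genes and was absent from 60. Of the 60 with none, 16 fell (26.7%) and 0 rose, with a median log2 fold change of -0.096, the same as that of all 132. Of the 32, 7 fell (21.9%) and 3 rose (9.38%), with a median of -0.059. Of all genes tested 28.0% fell and 15.7% rose, so neither number of falls is a result about these genes. Members of a cluster are also paralogs with similar sequence, and how the authors' counting treated reads that fit several of them is unknown.

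Highly expressed genes were few. ZNF146 (ENSG00000167635), a protein made almost only of fingers, had the highest level. It measured 24.4, 24.0, 24.1 and 24.2 FPKM in LPS libraries and 21.7, 23.3, 21.4 and 21.1 FPKM in 3-HPA libraries. The groups did not overlap, and the log2 fold change was -0.14 (SE 0.030, adjusted p = 0.00535, limma). Under TMM scaling it was -0.079 for ZNF146 with an adjusted p of 0.0807. ZNF317, a KRAB gene, was next, at 20.1, 21.3, 19.5 and 18.98 FPKM and then 16.7, 17.8, 16.9 and 17.05 FPKM. Its groups were separate (log2 fold change -0.21, SE 0.036, adjusted p = 0.00140, limma). ZNF787 at 12.8 ± 0.537 and 11.9 ± 1.298 FPKM and ZNF865 at 7.97 ± 0.180 and 8.27 ± 0.330 FPKM did not pass (adjusted p 0.265 and 0.271). ZNF865 gave an adjusted p of 0.0318 on the higher side under TMM scaling. Most of the other genes were low: 77 of the 132 averaged under 2 FPKM, and the median over genes was 1.74 FPKM, against 4.10 for all genes tested.

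**Figure D3:**
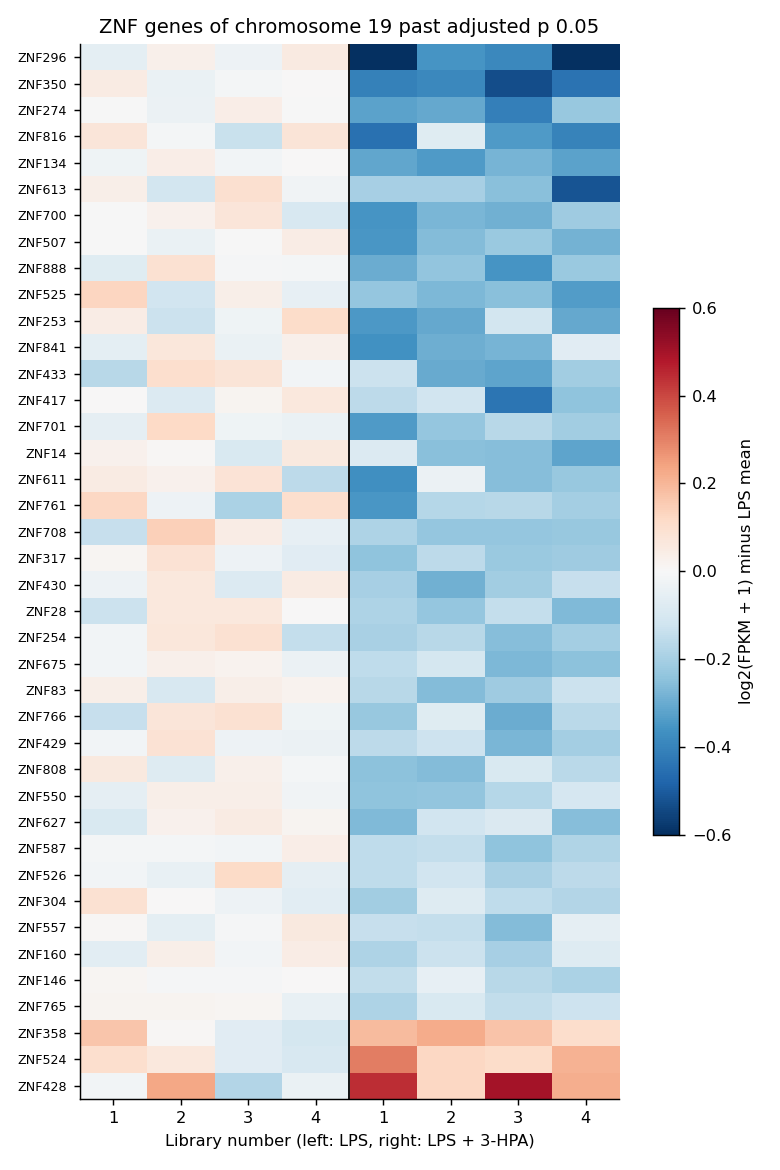
Heat map of the 40 ZNF genes past an adjusted p of 0.05, 1 row per gene from the largest fall at the top to the largest rise at the bottom and 1 column per library (LPS 1 to 4, then LPS with 3-HPA 1 to 4), coloured by log2(FPKM + 1) minus the gene's LPS mean. The 37 upper rows are blue in the 3-HPA columns and the 3 lowest rows are red, with ZNF296 darkest in 3-HPA libraries 1 and 4.

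The genes were next divided by the KRAB pattern. Of the 106 genes with a KRAB pattern, 32 fell and 0 rose, and 89 had a log2 fold change below 0. The share that fell, 30.2%, was near the 28.0% of all genes tested and the 31.9% of protein-coding genes tested, so it is no result about the KRAB genes. Their median log2 fold change was -0.10 and their median log2 ratio of means -0.18. Of the 26 without the pattern, 5 fell (ZNF296, ZNF134, ZNF507, ZNF526 and ZNF146) and 3 rose, and 18 lay below 0, with medians of -0.059 and -0.071. The 2 classes differ in level, with medians over genes of 1.49 and 4.29 FPKM, and no test of their difference was made. Among genes with a mean of 2 to 5 FPKM, the median was -0.11 in 31 with the pattern and -0.13 in 11 without. Of these 12 and 4 fell (38.7% and 36.4%), against 27.2% of all genes tested in that range. In the ranges under 1, 1 to 2, 5 to 10 and from 10 FPKM the KRAB median was the lower one. Those ranges held only 3, 3, 7 and 2 genes without the pattern. With 1 library left out in turn, 0 to 1 of the 106 rose and 23 to 28 fell, and under TMM scaling 2 rose and 20 fell.

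The number of fingers went with little change in the fold. The median log2 fold change was -0.094 in the 31 genes with up to 8 fingers, -0.10 in the 41 with 9 to 12, -0.10 in the 34 with 13 to 16 and -0.069 in the 26 with 17 and over. Over the 132 genes the Spearman correlation of fold change with finger number was -0.053, a description over genes of the same 8 libraries.

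Clusters along the chromosome were taken as runs of annotated ZNF genes with starts at most 500 kb apart. Of these clusters, 8 held at least 5 of the 132 genes. Their counts stand beside all genes tested, of which 28.0% fell, 15.7% rose and 60.1% lay below 0. The lowest median was that of the pericentromeric run from ZNF101 to ZNF254 (chr19:19668796-24129961), which holds ZNF91, ZNF93 and ZNF675 and in which 12 of 37 annotated genes were expressed, all with a KRAB pattern. Its 12 genes all had a fold change below 0, with a median of -0.19, and 7 of them fell, led by ZNF253 (-0.27) and ZNF14 (-0.23). Their summed level went from 23.8 ± 0.933 to 19.4 ± 0.219 FPKM (SD, n = 4 each), or by -18.6%, with no overlap between the groups.

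The run from ZNF175 to ZNF331 (chr19:51571298-53580269), which holds ZNF350 and ZNF160, contributed 15 of the 37 falls. All 27 of its expressed genes had a KRAB pattern, 24 lay below 0, and the median log2 fold change was -0.16. Its sum went from 64.3 ± 0.507 to 54.3 ± 1.93 FPKM, by -15.5%. The 3 above 0 were ZNF480, ZNF614 and ZNF615, and none of them passed. At the end of the chromosome, from ZNF264 to ZNF446 (chr19:57191500-58481230), 6 of 30 genes fell, among them ZNF274, ZNF134 and ZNF587. The median of that run was -0.10, and its sum went from 49.8 ± 0.752 to 43.6 ± 1.59 FPKM. For both runs the background is 28.0% of all genes tested falling and 60.1% lying below 0.

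A pair of runs had medians nearer 0. In the run from ZNF575 to ZNF180 (chr19:43525497-44500524), which holds ZNF224, 0 of 12 genes fell and ZNF428 rose, 6 lay below 0, the median was -0.0076 and 9 of 12 had a KRAB pattern. The sum was 26.8 ± 1.04 and 27.5 ± 1.16 FPKM, with overlapping libraries. ZNF222 was the lowest of that run, at 2.27 ± 0.397 and 1.70 ± 0.265 FPKM, and did not pass (log2 fold change -0.27, adjusted p = 0.0534, limma). The run from ZNF628 to ZNF835 (chr19:55476332-56671783) was mostly without KRAB (1 of 10), more highly expressed (median over genes 5.79 FPKM), and had 0 falls and 1 rise (ZNF524), with a sum of 61.2 ± 0.502 and 60.7 ± 3.10 FPKM. The directions of both runs depended on the scaling: under TMM their medians were 0.030 and 0.011, and the sum of the ZNF628 to ZNF835 run was 1.03 times that of LPS in place of 0.992. In the 3 remaining runs the medians were -0.081 (ZNF414 to ZNF846), -0.096 (ZNF653 to ZNF791) and -0.089 (ZNF565 to ZNF573), with 1 of 8, 3 of 11 and 1 of 10 genes falling. Beside these counts, 28.0% of all genes tested fell and 15.7% rose. The sums of the ZNF101 to ZNF254 and ZNF175 to ZNF331 runs also moved with the scaling. Under TMM they were 0.849 and 0.881 times LPS, and with equal totals 0.793 and 0.823, in place of 0.814 and 0.845. No test between clusters was made.

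**Figure D4:**
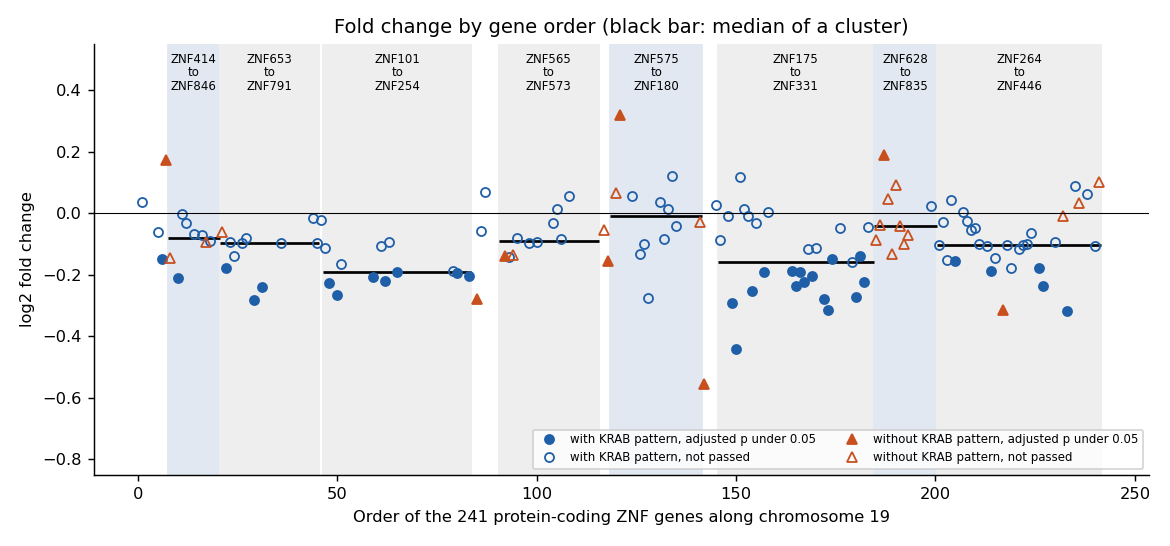
Log2 fold change (vertical axis) of the 132 genes in their order among the 241 annotated ZNF genes of chromosome 19 (horizontal axis), with blue circles for genes with a KRAB pattern, orange triangles for those without, filled symbols for an adjusted p under 0.05 and black bars at the median of each shaded cluster. The bars lie at -0.19 for ZNF101 to ZNF254, -0.16 for ZNF175 to ZNF331 and -0.0076 for ZNF575 to ZNF180.

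Since the group is low in level, its median was set beside that of all genes tested in fixed ranges of mean FPKM, with no genes drawn. Under 1 FPKM the median log2 fold change was -0.064 in 40 ZNF genes and -0.033 in 2110 genes tested. From 1 to 2 FPKM it was -0.10 in 37 against -0.049 in 2029, and from 2 to 5 FPKM -0.11 in 42 against -0.057 in 2745. From 5 to 10 FPKM it was -0.049 in 10 against -0.054 in 2038, so there the ZNF median was not the lower one. At 10 FPKM and over it was -0.14 in 3 against -0.043 in 3577. In the 3 ranges below 5 FPKM the share that fell was 12.5%, 29.7% and 38.1%, against 12.6%, 19.1% and 27.2% of all genes tested. The share that rose was 0%, 0% and 4.76%, against 7.20%, 9.17% and 14.2%. Beside protein-coding genes alone the gap was smaller: their medians in these 3 ranges were -0.053, -0.063 and -0.067, and 16.7%, 23.5% and 29.9% of them fell while 9.25%, 9.99% and 14.02% rose. Over the 132 genes the Spearman correlation of fold change with mean FPKM was -0.21, and 0.024 for the ratio of means, each over genes of the same libraries.

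The direction of the group's median did not depend on the scaling among the 7 used, while the size did. With equal FPKM totals the median was -0.12 for the ZNF genes and -0.075 for all genes tested, and with TMM scaling, which removed nearly all of the general shift, -0.064 and -0.0027. The ZNF median was lower than that of all genes by 0.042 to 0.061 on the log2 scale under every one of them. Other than quantile normalisation, these scalings change each library by a common factor, which moves both medians almost alike. The gap could therefore hardly change, and its persistence is no further support. Under TMM scaling 23 of the 132 fell and 7 rose, against 2522 and 2592 of all genes, and with the median of all tested genes made equal, a setting chosen after seeing the data, 25 fell and 6 rose. All 23 and all 25 were among the 37. Leaving out 1 library in turn gave 28 to 34 falls and 0 to 2 rises, with 0 rises without LPS library 3, LPS library 4 or 3-HPA library 1. In 16 genes the fall passed under every setting other than the 1.2-fold test and the unfiltered table: ZNF134, ZNF253, ZNF274, ZNF28, ZNF296, ZNF317, ZNF350, ZNF430, ZNF507, ZNF587, ZNF613, ZNF675, ZNF700, ZNF83, ZNF841 and ZNF888.

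**Figure D5:**
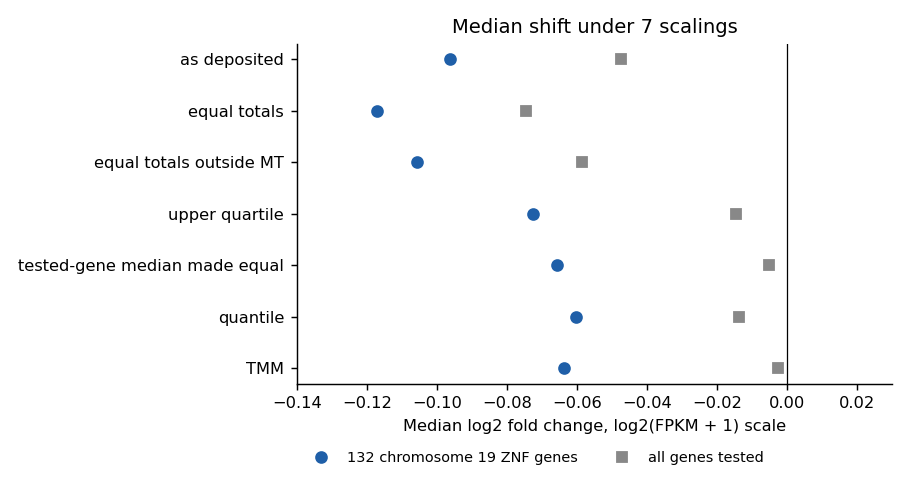
Median log2 fold change (horizontal axis) of the 132 ZNF genes (blue circles) and of all genes tested (grey squares) under 7 scalings of the libraries (vertical axis). The ZNF medians run from -0.12 with equal totals to -0.060 with quantile normalisation and lie left of the all-gene median in each row. Other than quantile normalisation, these scalings change each library by a common factor, which moves both medians almost alike.

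RefSeq promoter sequences (GRCh38.p14, 250 bases before to 50 after the gene start) were matched for 118 of the 132 genes. The promoters of ZNF350, ZNF274 and ZNF134, which after ZNF296 had the largest falls with separate groups, and of ZNF428, which had the largest rise, are shown in the direction of the gene, with capitals marking a match to the ETS-type core CCGGAAG, searched on both strands and read here from the other strand.
ZNF350, chr19:51986791-51987090, minus: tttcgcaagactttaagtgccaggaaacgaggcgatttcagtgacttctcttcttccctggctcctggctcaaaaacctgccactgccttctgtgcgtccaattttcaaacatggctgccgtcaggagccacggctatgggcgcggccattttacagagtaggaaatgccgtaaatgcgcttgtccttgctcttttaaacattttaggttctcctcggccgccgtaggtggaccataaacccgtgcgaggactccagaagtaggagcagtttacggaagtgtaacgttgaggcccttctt
ZNF274, chr19:58182811-58183110, plus: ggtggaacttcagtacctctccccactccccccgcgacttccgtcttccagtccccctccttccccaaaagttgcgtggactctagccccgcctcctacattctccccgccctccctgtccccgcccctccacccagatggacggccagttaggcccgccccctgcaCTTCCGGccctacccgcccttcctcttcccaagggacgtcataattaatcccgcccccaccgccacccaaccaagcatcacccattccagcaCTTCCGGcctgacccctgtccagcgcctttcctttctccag
ZNF134, chr19:57613992-57614291, plus: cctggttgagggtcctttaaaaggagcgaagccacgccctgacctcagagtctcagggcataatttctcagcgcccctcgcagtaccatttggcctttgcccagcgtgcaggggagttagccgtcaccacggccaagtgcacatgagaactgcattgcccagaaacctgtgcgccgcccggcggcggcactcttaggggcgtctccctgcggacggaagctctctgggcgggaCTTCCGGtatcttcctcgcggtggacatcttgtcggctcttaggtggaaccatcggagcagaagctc
ZNF428, chr19:43619580-43619879, minus: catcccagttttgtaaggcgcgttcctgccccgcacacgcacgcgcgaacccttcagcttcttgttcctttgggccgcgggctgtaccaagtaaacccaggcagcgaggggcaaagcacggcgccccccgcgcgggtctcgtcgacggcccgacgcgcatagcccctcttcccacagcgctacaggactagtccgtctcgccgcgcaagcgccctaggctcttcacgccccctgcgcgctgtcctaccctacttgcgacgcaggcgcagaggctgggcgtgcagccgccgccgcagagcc

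ZNF274 held 2 matches, at 83 bases before and 9 bases after its start, and ZNF134 held 1, at 17 bases before. ZNF350 and ZNF428 held none in this window. Over the group the core was present in 52 of 118 promoters (44.1%), against 20.6% of the 8698 promoters of genes tested and 10.7% of all 27305 promoters in the reference. Of the 52 genes with the core, 17 fell (32.7%) and 0 rose, with a median log2 fold change of -0.11. Of the 66 without it, 16 fell (24.2%) and 2 rose (3.03%), with a median of -0.084. The shares that fell lie on either side of the 28.0% of all genes tested, of which 15.7% rose. The difference between the classes was not tested. The interferon-type motif TTTCNNTTTC, searched on both strands, occurred in 0 of 118 promoters of the group and in 2.91% of those of genes tested. The median GC content was 61.3% in the group and 65.3% in genes tested, and GC went with the fold change at a Spearman correlation of 0.22 over 118 ZNF genes and 0.15 over 8698 genes tested. A motif match is a match of letters only.

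The 156 ZNF genes expressed from other chromosomes were counted in the same way: 54 fell, 9 rose and 117 lay below 0, with a median log2 fold change of -0.089. These are 34.6% and 5.77%, beside 28.0% and 15.7% of all genes tested, of which 60.1% lay below 0. Of these, the 62 with a KRAB pattern had a median of -0.11, with 20 falls (32.3%) and 1 rise (1.61%). The 94 without it had a median of -0.075, with 34 falls (36.2%) and 8 rises (8.51%). The other 625 protein-coding genes of chromosome 19 had a median of -0.019, with 144 falls and 137 rises. These counts are descriptions, and the differences between the groups were not tested.

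The cofactors that KRAB proteins act through were counted in the same way. Of 36 listed cofactors 31 were tested. Of these, 10 fell (32.3%) and 4 rose (12.9%), near the 28.0% and 15.7% of all genes tested, so the counts are no result about the list. The median log2 fold change was -0.019, while under TMM scaling it was 0.022, with 6 falls and 9 rises. TRIM28, which binds the KRAB box, measured 48.2, 50.6, 51.4 and 50.2 FPKM in LPS libraries and 50.8, 51.5, 54.4 and 51.4 FPKM in 3-HPA libraries. The groups overlapped (log2 fold change 0.053, adjusted p = 0.148, limma), while under TMM scaling TRIM28 rose, with a log2 fold change of 0.11 and an adjusted p of 0.00702. SETDB1, the methyltransferase, measured 13.1, 12.9, 12.9 and 13.05 FPKM and then 11.6, 11.0, 10.85 and 12.1 FPKM, so that all 3-HPA libraries were lower (log2 fold change -0.17, SE 0.034, adjusted p = 0.00280). RESF1, known for silencing retroelements with SETDB1, rose from 89.3 ± 2.93 to 163.4 ± 2.72 FPKM (SD, n = 4 each, log2 fold change 0.87, adjusted p = 2.11e-08). TRIM24 fell from 7.86 ± 0.337 to 5.96 ± 0.0962 FPKM (adjusted p = 3.66e-05). Of the HP1 proteins, CBX3 fell from 37.5 ± 1.13 to 32.9 ± 0.700 FPKM (adjusted p = 0.000407) and CBX5 rose from 7.91 ± 0.159 to 9.14 ± 0.194 FPKM (adjusted p = 0.000450).

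Just inside the threshold of 0.5 FPKM in 4 libraries, the level in the library that decided entry, the 4th from the top, was 0.501 FPKM for ZNF446 and 0.510 FPKM for ZNF823. ZNF446 averaged 0.469 ± 0.0288 FPKM in LPS libraries and 0.576 ± 0.0713 in 3-HPA libraries, and ZNF823 0.541 ± 0.109 and 0.452 ± 0.186 (SD, n = 4 each). Just outside it, that level was 0.495 FPKM for ZNF737 and 0.486 FPKM for ZNF223.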

How the data were processed

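RNA-seq was run on 8 THP-1 libraries, 4 per group. The submitters' processing notes name HISAT2 2.1.0, fastp 0.22.0 and featureCounts, with the build GRCh38. The authors deposited FPKM in 1 table. Neither strand use nor the treatment of reads that fit several genes is given in the sources used here. Symbols came from the reference's gene names (30221 of 30233 identifiers matched), and positions, exons and coding sequence from GENCODE 29 on GRCh38 (28364 matched). Depth was recovered by searching for library totals and gene lengths that turn FPKM into whole reads within 0.01, which held for 12498 of 12499 genes tested and all 132 ZNF genes. The recovered exon length equalled that of GENCODE 29 for 34 of the 132. Tests cover counting error and the spread between libraries, not PCR duplicates or alignment error. No 2 libraries of a group agreed within counting noise (chi-square per gene from 5.78 to 6.83).

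The comparison used limma 3.58.1 under R 4.3.3 on log2(FPKM + 1) with a mean-variance trend, two-sided, with Benjamini-Hochberg adjustment over all genes tested. Fold changes are LPS with 3-HPA minus LPS. A count test had been planned in case of counts, and with FPKM the limma test planned for that unit applied. The limma and depth steps were tested on simulated data. Named are the 10 largest falls and 5 largest rises past the threshold with separate groups (1 rise with a call met this), the 4 most highly expressed genes, the pairs nearest the FPKM threshold, 9 genes with roles in the literature, and, from the cofactor list, TRIM28, SETDB1 and the 4 with the smallest p. The members, lists and rules were chosen with earlier results of these data known. Lists are described by counts and medians, with no test. KRAB and finger patterns were searched in the translated coding sequence with Python 3.11.15 and Biopython 1.88. Alternatives were other scalings, pseudocounts of 0.1 and 0.5, no filter or one of 1 FPKM, no trend, library weights, a replicate block, a test against a 1.2-fold change, voom on the recovered reads, and leaving out each library.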

Additional observations from a re-analysis of the deposited data

Results flagged for a closer look

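Single libraries stood apart from the other three of their group for 3 of the genes named, among 74 groups of 4 checked, with a gap to the nearest library that took up most of the group's range (Dixon's criterion at 95%). Chance gives such a gap in about 1 of 20 groups, and 3 of 74 is no more than that, so the number of flags is no result. ZNF91 measured 1.87 FPKM in 1 of the 3-HPA libraries and 1.41 to 1.47 FPKM in the others. ZNF224 measured 2.45 FPKM in 1 of the LPS libraries and 2.15 to 2.18 FPKM in the others. ZNF85 measured 0.0111 FPKM in 1 of the LPS libraries, which is 2 reads, and 0 in the others. With the others equal, any single value above 0 would be flagged.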

How the results depend on the processing

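Over 24 alternative settings no named gene changed direction where it was tested, nor did the median of the group or of its KRAB members. The group's sum was taken only under the other scalings and with each library left out, and stayed lower with 3-HPA. Of 32 named genes tested, 5 kept the same outcome under all 24. RESF1 and ZNF350 passed throughout, while ZNF175, ZNF224 and ZNF787 passed under none. A further 2, ZNF446 and ZNF823, passed under none of the 23 in which they were tested. The medians of the ZNF575 to ZNF180 run and of the cofactor list turned positive under TMM, quantile, upper-quartile, tested-gene median and voom TMM scaling (0.020 to 0.049 and 0.011 to 0.034), and that of the ZNF628 to ZNF835 run under these other than upper quartile (0.0064 to 0.011). The sum of that last run rose to 1.02 to 1.03 times LPS under 4 of 7 scalings. These list values were added after seeing the data. Rises depended most on scaling. Under TMM scaling 23 of the 132 chromosome 19 ZNF genes fell and 7 rose, against 37 and 3 as reported. Rises numbered 1 with equal totals or voom on library totals, 5 with quantile, upper-quartile or voom TMM scaling, and 6 with the tested-gene median made equal, the last chosen after seeing the data. With no filter on low values 20 fell and 0 rose of 225 genes, and against a 1.2-fold change 1 fell (ZNF350) and 0 rose. Leaving out 1 library gave 28 to 34 falls and 0 to 2 rises.

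The median log2 fold change of the group was -0.064 with TMM, -0.12 with equal totals, -0.060 with quantile, -0.073 with upper-quartile scaling, -0.066 with the tested-gene median made equal, -0.044 with no filter, -0.16 and -0.13 with pseudocounts of 0.1 and 0.5, and -0.16 with voom on library totals. The sum over the group with 3-HPA was 0.902 times that of LPS as reported, and 0.942 with TMM, 0.879 with equal totals, 0.893 with totals made equal without the mitochondrial genome, 0.931 with upper quartile, 0.939 with the median made equal and 0.936 with quantile scaling. The cause was not tested.

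Rises among ZNF genes of other chromosomes numbered 20 (TMM and median made equal), 15 (quantile), 17 (upper quartile) and 23 (voom TMM), with 2 rises and 2 falls against a 1.2-fold change. In the cofactor list 9 rose and 6 fell under TMM, 9 rose with quantile, upper-quartile or median scaling, 10 rose with voom TMM, and 1 rose and 0 fell against a 1.2-fold change. Of all genes, 535 rose and 551 fell against a 1.2-fold change.

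Libraries of the 2 groups share replicate numbers, but same-numbered libraries did not deviate together (correlations of -0.023, -0.0035, 0.036 and 0.089), so the numbers were not taken as pairs. With the replicate number as a block 27 of the 132 fell and 2 rose, ZNF428 no longer passed (adjusted p = 0.0951) and ZNF91 did (0.0428). Genes near 0.5 FPKM rest on as few as 24 reads in a library, which limits what can be seen of them.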
